A study of Caenorhabditis elegans with 8 samples.

Results

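The heat-inducible genes of the hsp-16 and hsp-70 families of Caenorhabditis elegans were examined for the presence of RNA polymerase II in early embryos. The set held 9 genes, chosen by name and looked up in a table of 8922 genes with a polymerase call in at least 1 condition. They were hsp-16.1 (T27E4.8), hsp-16.11 (T27E4.2), hsp-16.48 (T27E4.3), hsp-16.49 (T27E4.9), hsp-16.2 (Y46H3A.3), hsp-16.41 (Y46H3A.2), hsp-70 (C12C8.1), F44E5.4 and F44E5.5. Of these, 8 were in the table and 1, hsp-70, was not.

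The calls came from chromatin immunoprecipitation followed by sequencing (ChIP-seq) using an anti-AMA-1 antibody, AMA-1 being the catalytic large subunit of the polymerase. The control for RNAi was the empty vector L4440, and the other embryos were given sig-7 RNAi. SIG-7 is a cyclophilin of the nucleus that also carries an RNA recognition motif. All embryos were of strain KW2309, whose alleles the labels do not give. They came from bleached adults and covered the 1-cell to the 350-cell stage, with 2 ChIP and 2 input libraries per condition. The labels do not say whether replicates came from separate cultures. A word search of the growth, treatment and extraction protocols for heat or a temperature in degrees found none. No heated sample was analysed here, so the heat-inducible nature of the genes is background and was not checked in these libraries.

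Heat shock genes encode molecular chaperones, proteins that hold or refold other proteins when these lose their shape. On heating, the heat shock factor HSF-1 forms trimers on short repeated elements upstream of these genes, and RNA polymerase II then transcribes them strongly. In Drosophila the uninduced Hsp70 gene already carries a polymerase paused near its start, and the release of paused polymerase is a classic example of control at elongation. The HSP-16 proteins are small heat shock proteins of the alpha-crystallin family, which bind unfolded proteins without using ATP. HSP-70, F44E5.4 and F44E5.5 belong to the ATP-dependent HSP70 family.

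A call of 1 meant that a broad peak overlapped the gene in both replicates of a condition. A call of 0 meant that this held in at most 1 replicate, and genes absent from the table were in neither set. A call is a category and gives no amount of polymerase. The deposited table merges the replicates, so no spread between libraries and no test of a difference between conditions could be obtained for any gene. The depth of the libraries is unknown from this table. A gene can also be missing from the table because the authors' gene annotation, which is not given in the sources used here, lacked it. The gene targeted by the RNAi, sig-7 (F39H2.2), was itself called in sig-7(RNAi) embryos alone, and the extent of its knockdown cannot be read from a polymerase call.

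Polymerase was called at 8 of the 9 heat-inducible genes in control embryos and at the same 8 in sig-7(RNAi) embryos. No member was called in a single condition. Over all protein-coding genes of the gene table, 22.8% were called in control (4564 of 19983) and 23.9% in sig-7(RNAi) (4769). Over all 46926 genes of the gene table, non-coding genes included, the shares were 14.4% in control and 13.9% in sig-7(RNAi). The share called in both conditions was 16.8% of protein-coding genes, beside 8 of 9 members. Calls in control alone covered 6.03% of protein-coding genes and calls in sig-7(RNAi) alone 7.05%, beside 0 of 9 members for each. Members that lie side by side can share a peak, and so these 9 genes are not 9 independent observations.

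**Figure D1:**
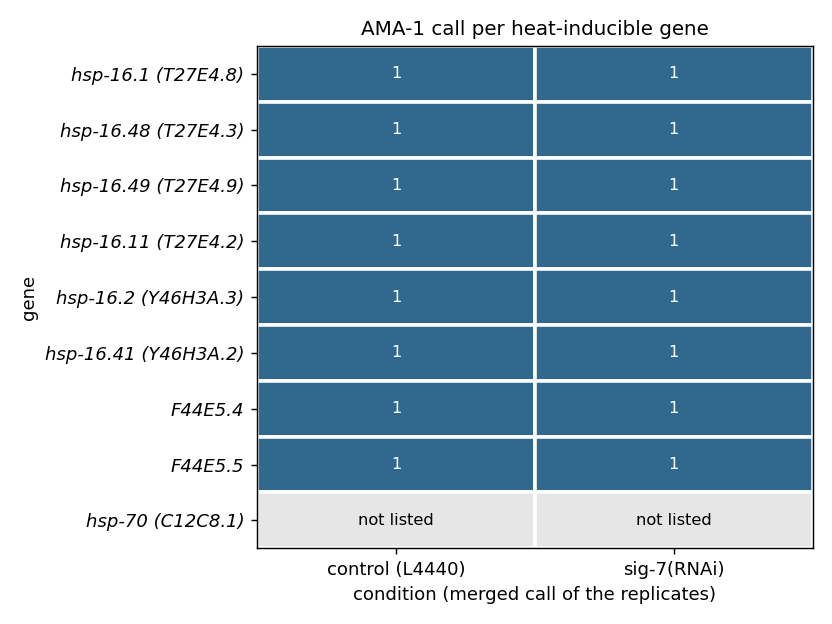
Call of AMA-1 (columns, control and sig-7(RNAi), each merging 2 replicates) at each of the 9 heat-inducible genes (rows). Blue boxes with 1 are calls and grey boxes are genes not listed in the call table. The 8 listed genes had a call of 1 in both columns, and hsp-70 had none.

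All 6 hsp-16 members had a call of 1 in control and of 1 in sig-7(RNAi), beside 16.8% of protein-coding genes called in both. They are not the whole family, as hsp-16.20 and hsp-16.21 were outside the set and were not listed. The gene order places the 6 members at 2 loci. At the first, hsp-16.1, hsp-16.48, hsp-16.49 and hsp-16.11 follow each other with no other gene between them. These 4 genes form an inverted duplication, in which hsp-16.1 is paired with hsp-16.48 and hsp-16.11 with hsp-16.49, each pair transcribed away from a shared upstream region. At the second locus hsp-16.2 and hsp-16.41 form another such divergent pair. Copies in the inverted duplication are near-identical. Reads from one copy can match the other, and the calls of the individual copies are uncertain for this reason.

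The HSP70 members were split between called and not listed. F44E5.4 and F44E5.5, a divergent pair of near-identical HSP70 genes, each had a call of 1 in control and of 1 in sig-7(RNAi). As for the hsp-16 copies, reads from these genes can match either of them. hsp-70 (C12C8.1), the remaining HSP70 member of the set, was not listed and thus had no call in either condition. Its absence from the table does not show that polymerase was absent from hsp-70.

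The genes around the members differed between the 4 loci. Of the 24 nearest neighbours, 3 on either side of each locus, 5 had a call in both conditions. Another 2 had one in sig-7(RNAi) embryos alone, 0 had one in control alone, and 17 were not listed. Most genes of the gene table were likewise unlisted, as 8824 listed names matched its 46926 genes. Over all genes of the gene table, the shares were 9.52% for calls in both conditions, 4.40% for sig-7(RNAi) alone and 4.88% for control alone. With piRNA and ncRNA genes left out, they were 15.6%, 6.77% and 5.43% in the same order. Among protein-coding genes they were 16.8%, 7.05% and 6.03%. The neighbours were of mixed biotypes and no background was matched to these, so the counts do not show an excess of calls around the members. Neighbours of one locus can share a peak with it. At the hsp-16.1 locus, the snRNA gene T27E4.11 on one side and the snRNA gene T27E4.10 and the ncRNA gene T27E4.15 on the other were called in both. Together with the 4 hsp-16 genes they made an unbroken run of 7 genes called in both conditions. Of the 1861 such runs in the gene order, 65 (3.49%) held 7 or more genes. This share counts runs, and a called gene lies in a long run more often than that. The set also holds 4 adjacent members by choice, so the share does not measure how unusual this run is. A further snRNA gene, T27E4.12, was also called in both, beyond the unlisted T27E4.22. The authors' annotation may have lacked T27E4.22, so the length of 7 depends on the gene table used here. Next to T27E4.12, T27E4.1 was not listed, and F21C10.10 after it was called in control only. On the other side 53 consecutive genes of the gene table were not listed.

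At the hsp-16.2 locus the neighbourhood was not the same in the 2 conditions. srt-41, a gene of a class of chemoreceptor-like proteins, lies beside hsp-16.2 and was called in both conditions. Beside hsp-16.41, srt-42 and then Y46H3A.4 were called in sig-7(RNAi) only. Y46H3A.5 followed and was not listed. Calls specific to sig-7(RNAi) beside a shared run were common across the genome. Of the 1861 runs, 692 (37.18%) had a sig-7(RNAi)-only gene next to them on at least 1 side, and 354 (19.02%) had a control-only gene.

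F44E5.4 and F44E5.5 stood as a run of 2 genes with unlisted genes at either end, the ncRNA gene F44E5.16 and the pseudogene F44E5.3. Of all runs, 47.34% had unlisted genes at both ends, and the median run held 2 genes. Past F44E5.3, F44E5.2 was called in both conditions and F44E5.15 was not listed. The ncRNA genes F44E5.11 and F44E5.12, next after these, were called in sig-7(RNAi) only, so such calls also lay near this pair. On the other side 7 unlisted genes, all annotated as ncRNA, separated the pair from F44E5.14, which was called in both.

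hsp-70 lay in a stretch without calls, and all 6 of its nearest neighbours were unlisted, as were most genes of the gene table (8824 of 46926 listed). Only uggt-2 and cbl-1 among these 6 are protein-coding, and the other 4 are tRNA genes. The nearest listed gene on one side, F26H9.5, was called in both conditions and was separated from hsp-70 by 3 unlisted genes. On the other side the microRNA gene mir-79 was called in control only, after 8 unlisted genes.

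**Figure D2:**
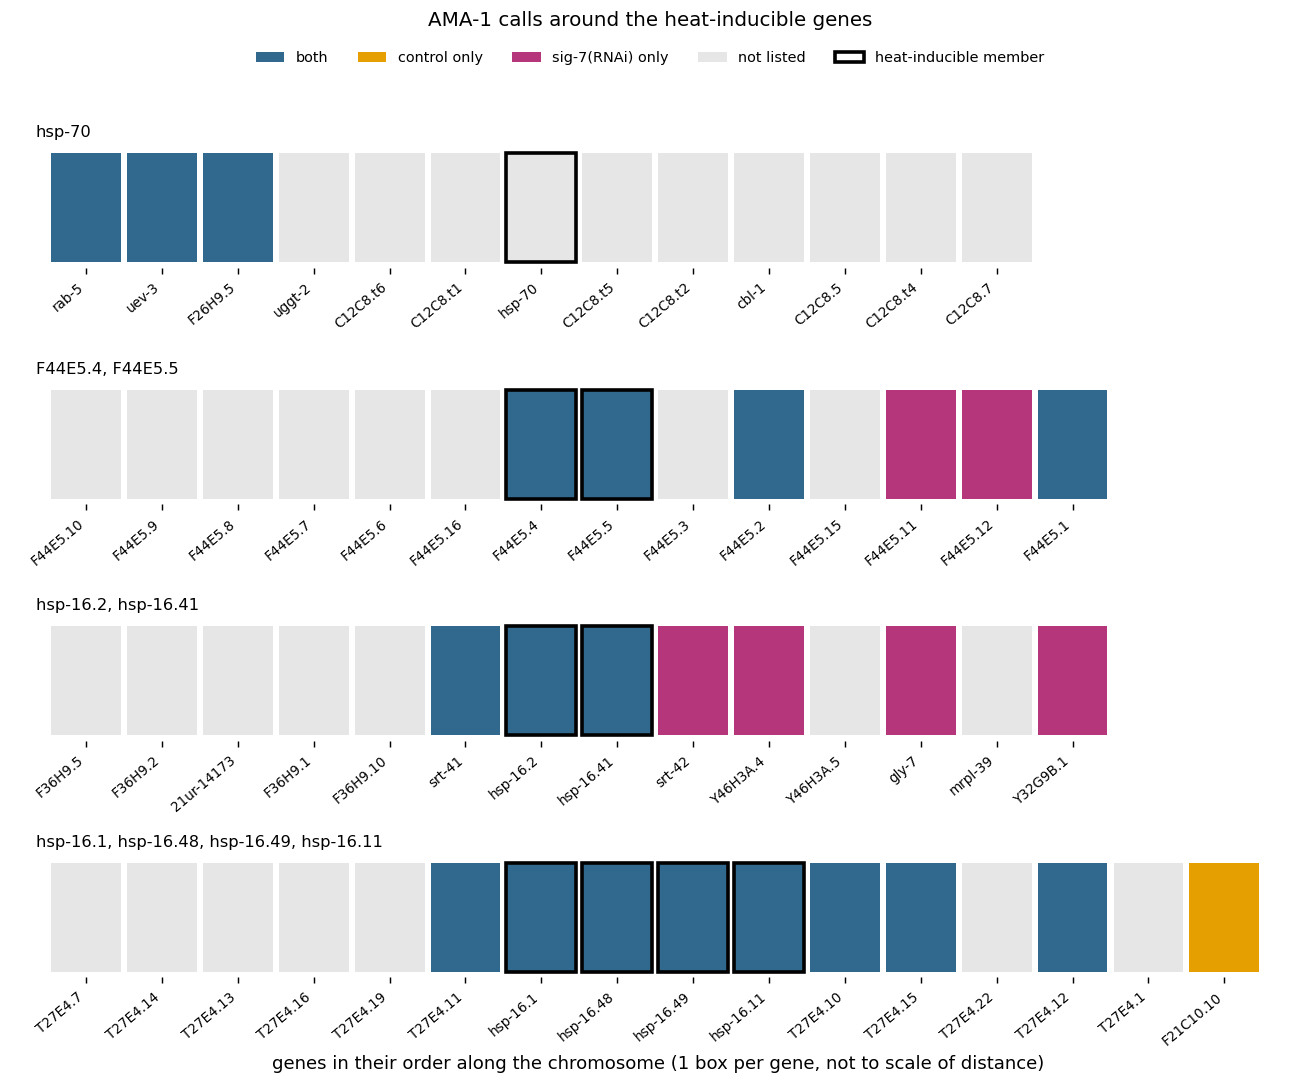
Calls of AMA-1 at the genes around each of the 4 loci, with up to 6 neighbours on either side. Each box is 1 gene in chromosomal order (x axis, distances not to scale), coloured by its call, and black outlines mark the 9 members. The hsp-16.1 locus sits in a run of 7 genes called in both conditions, and sig-7(RNAi)-only genes follow hsp-16.41. The 3 genes on either side of hsp-70 are unlisted, as are most genes of the gene table.

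Other chaperone, heat shock and stress genes were taken from 6 lists, described here by their calls alone. Of 9 further HSP70-related genes, 0 were called in a single condition. Among protein-coding genes the shares were 6.03% for control alone and 7.05% for sig-7(RNAi) alone. At shares this low, 0 of 9 is no result about the family. Calls in both conditions were found at 6 of the 9 genes, beside 16.8% of protein-coding genes. They were hsp-1, the constitutive cytosolic HSP70 gene, hsp-3 and hsp-4, which encode the HSP70 chaperones of the endoplasmic reticulum, hsp-6, the mitochondrial HSP70 gene, hsp-110, whose product exchanges nucleotides on HSP70, and T24H7.2. The other 3, stc-1, F11F1.1 and T14G8.3, shared with hsp-70 the absence from the table.

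Of 12 other small heat shock genes, 1 was called in both conditions and 9 were not listed, beside 16.8% of protein-coding genes called in both. The 6 hsp-16 members, all called in both, lie at only 2 loci. The gene called in both was hsp-12.3, hsp-25 was called in control only, and sip-1 in sig-7(RNAi) only. The unlisted genes included hsp-12.1, hsp-12.2, hsp-12.6, hsp-17 and hsp-43. They also included hsp-16.20 (F08H9.3) and hsp-16.21 (F08H9.4), which carry the hsp-16 name in the gene table and were not among the members.

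Beside 16.8% of protein-coding genes, all 5 genes of the HSP90 and HSP60 list were called in both conditions. These were hsp-90, the cytosolic HSP90 gene also known as daf-21, enpl-1 and hsp-75 of the endoplasmic reticulum and mitochondria, the mitochondrial chaperonin gene hsp-60, and trap-1. The last entered the list by its name, but in the worm it encodes a translocon-associated protein and no HSP90.

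Of the 6 heat shock factor and regulator genes, 4 were called in control and 2 in sig-7(RNAi). Over all protein-coding genes the shares were 22.8% in control, 23.9% in sig-7(RNAi) and 6.03% in control only. hsf-1, which encodes the heat shock factor, and ddl-1, whose product joins HSB-1 in a complex that inhibits HSF-1, were called in both. hsb-1, the gene of the HSF-1 binding inhibitor, and daf-16, the FOXO factor gene, were called in control only. ddl-2 and hsf-2, a pseudogene in the gene table, were not listed. A difference of 2 genes between merged calls could not be tested.

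Beside 16.8% of protein-coding genes, 7 of the 11 co-chaperone genes had calls in both conditions. These included the J-domain genes dnj-12, dnj-13 and dnj-19, bag-1, and the HSP90 partner genes cdc-37 and daf-41. unc-23, which encodes a BAG domain protein, and the phosphatase gene pph-5 were called in control only. sti-1, whose product links HSP70 and HSP90, was called in sig-7(RNAi) only, and the ubiquitin ligase gene chn-1 was not listed.

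Genes known for induction by other stresses had 3 of 12 calls in both conditions, beside the same 16.8% of protein-coding genes, and 7 were not listed. The 3 were gpdh-1, an osmotic stress gene, gcs-1, an oxidative stress gene, and hsp-4, which is also on the HSP70 list. aip-1, an arsenite-response gene, was called in sig-7(RNAi) only, and nhr-57, a hypoxia-response gene, in control only. The metallothionein genes mtl-1 and mtl-2, the glutathione transferase gene gst-4 and the superoxide dismutase gene sod-3 were among the unlisted.

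**Figure D3:**
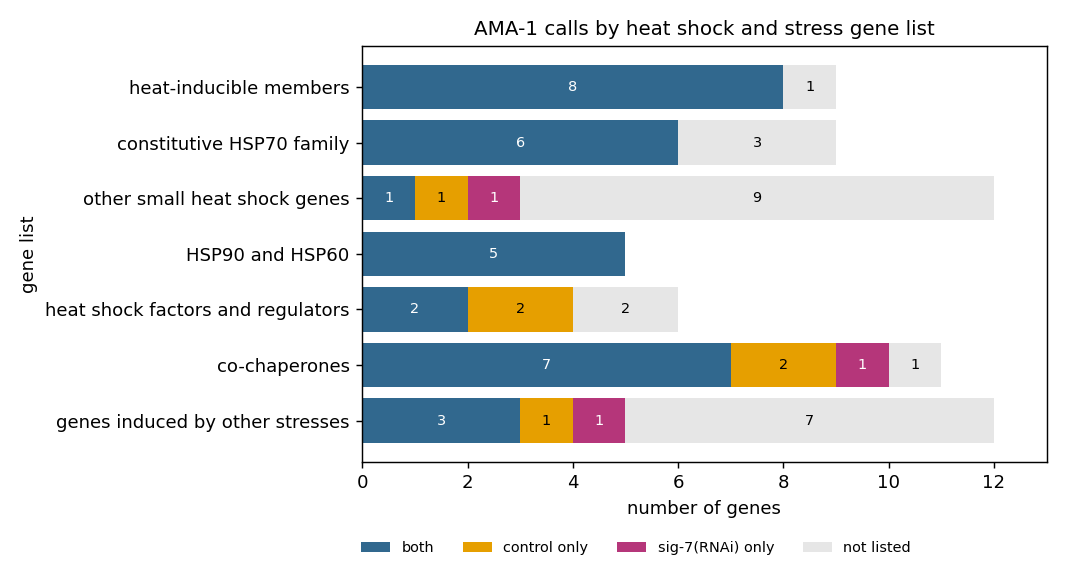
Number of genes (x axis) with each kind of AMA-1 call in the heat-inducible set and the 6 other lists (y axis). Colours separate shared calls, calls specific to control, calls specific to sig-7(RNAi) and genes not listed. The heat-inducible set had 8 of 9 genes in both, lying at 3 loci. The HSP90 and HSP60 list had 5 of 5, the HSP70-related genes 6 of 9 and the co-chaperones 7 of 11. The regulators had 2 of 6, the other stress genes 3 of 12 and the other small heat shock genes 1 of 12. Over all protein-coding genes the share was 16.8%.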

How the data were processed

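The authors deposited a call of 0 or 1 per gene and condition, a category that is neither a count nor a signal. Per the file headers, the peak caller was MACS2 with its broad option and a cutoff of 0.01. Genes took a peak by an overlap of at least 250 bp or 45% of their length, and a call of 1 needed this in both replicates, per the file headers. The submitters' processing notes name Bowtie 1.0.1 and the build ce10. Not given in the sources used here are the MACS2 version, the role of the input libraries, the annotation and how reads matching several copies were treated.

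Names were matched, ignoring case, to the RefSeq gene table of assembly WBcel235, which matched 8824 names and left 98 unmatched. As the build differs, this table gave only gene names, biotypes and which genes neighbour each other. Python 3.11.15 and pandas 2.3.3 were used, and the counting was tested on simulated calls. The members and lists were chosen with earlier results of these data known. Named genes were the members, their 3 nearest neighbours on either side and genes of the lists. Genes farther from the members (T27E4.12, T27E4.1, F21C10.10, F44E5.11, F44E5.12, F44E5.14, F26H9.5 and mir-79) were named after their calls were seen. The orientation of gene pairs and the similarity of copies are background knowledge. A planned search of promoters for heat shock elements, and a grouping of copies by protein identity, were not made because no sequences were used here.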

Additional observations from a re-analysis of the deposited data

How the results depend on the processing

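The members called in control, 8 of 9 genes, became 4 of 5 units with each divergent pair counted once, and 3 of 4 with each run of neighbouring members counted once. The counts in sig-7(RNAi) were likewise 8, 4 and 3, and in each counting 0 units were called in a single condition. The share of genes called in control, 14.4% of all genes, was 22.8% among protein-coding ones. In sig-7(RNAi) it was 13.9% of all genes, 23.9% of protein-coding ones and 22.3% once piRNA and ncRNA genes were left out. Leaving out replicates was not run, since the calls merge them. No paired analysis was possible because each deposited call already combines both replicates. Depth is unknown, and a gene that was not listed may have had a peak in 1 replicate.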

Other observations

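The order of genes in the deposited table does not follow the chromosomes, and the headers do not say what sets it. The 4 genes of the hsp-16.1 locus stood in rows 123 to 126 of 8922. Rows 127 to 130 held their neighbours T27E4.10, T27E4.11, T27E4.12 and T27E4.15. F44E5.4 and F44E5.5 stood in rows 165 and 166. hsp-16.2 and hsp-16.41 stood in rows 803 and 804, followed by srt-41 in row 805 and srt-42 in row 806, so that the sig-7(RNAi)-only call of srt-42 is listed directly with the shared calls of its neighbours. No value was drawn from these positions.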
